A study of Homo sapiens with 42 samples.

Results

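The VEGF ligands, their receptors and the neuropilins were followed through 42 RNA-seq libraries of 786-O cells, a human clear cell renal cell carcinoma (ccRCC) line. The set holds 10 of the 60609 genes counted in each library and was chosen by gene name: 5 ligands (VEGFA, VEGFB, VEGFC, VEGFD and PGF), 3 receptor tyrosine kinases (FLT1, KDR and FLT4) and 2 co-receptors (NRP1 and NRP2). All 10 genes were present in the count files, 7 of them had enough reads to be tested in the libraries of batch 1 and 9 in those of batch 2.

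VEGF ligands are secreted growth factors for blood and lymphatic vessels. VEGFA binds FLT1 and KDR, VEGFB and PGF bind FLT1, and VEGFC and VEGFD bind FLT4 and, once processed, KDR. FLT1, KDR and FLT4 are found mainly on endothelial cells, whereas the neuropilins bind both VEGFs and class 3 semaphorins and are also made by many tumor cells. In ccRCC, loss of VHL leaves HIF-α subunits undegraded, and the tumors are known for high VEGF production and dense vessels. HIF-α subunits pair with HIF-1β to bind DNA through a structured N-terminal part, and carry an intrinsically disordered region (IDR) with transactivation domains in the C-terminal part.

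786-O cells lack functional VHL and HIF-1α and have a stable endogenous HIF-2α, which every group below shared except where HIF-2α itself was edited. Batch 1 held 9 groups of 3 libraries. These were unedited cells (WT), a HIF-1β knock-in clone (HIF-1β KIN, clone A21), a HIF-2α knock-in clone (HIF-2α KIN, clone A31) and 6 transgene lines. In each KIN line, which is 1 homozygous clone, a V5-Halo tag was placed at the N-terminus of the endogenous protein. The transgene lines carried a stably integrated V5-Halo-tagged HIF-α under the L30 promoter, on top of the endogenous HIF-2α. They expressed HIF-1α, HIF-1α with the DNA-binding mutation R30E, HIF-1α with the dimerization mutations R170A and V191D (HIF-1αDM), HIF-2α, HIF-2α with the DNA-binding mutation R27E, or HIF-2α with the dimerization mutations R171A and V192D (HIF-2αDM). Batch 2 held 5 groups of 3 libraries: WT, HIF-1α, HIF-2α and a pair of chimeras. HIF-2α/1α joins amino acids 1 to 365 of HIF-2α to amino acids 364 to 826 of HIF-1α, and HIF-1α/2α joins amino acids 1 to 363 of HIF-1α to amino acids 366 to 870 of HIF-2α. Per the study's methods, the stable transgene lines were selected with puromycin. WT cells carried no transgene, and no group carried a transgene of the tag alone. One label names HIF-1α as the genotype of the HIF-2αDM libraries while their titles name HIF-2α, and they were taken by title.

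Libraries held 42377599 to 101186554 counted reads in batch 1 and 76366799 to 109642159 in batch 2. Levels are given in CPM (a gene's reads scaled to a common library total) after TMM normalization, as each library's value or as mean ± SD (n = 3 libraries), and 3 reads, taken as the limit of detection, were worth 0.0311 to 0.0713 CPM in batch 1 and 0.0271 to 0.0397 CPM in batch 2. Changes are log2 ratios ± standard error from edgeR's quasi-likelihood test fitted to all genes of a batch. A gene is said to rise or fall where its Benjamini-Hochberg adjusted p was at most 0.01 and its change at least 2-fold. The study calls the libraries biological replicates and the sources used here do not say whether they were grown as separate cultures, so p-values measure the spread between these libraries. The transgene was visible in its own gene, and the gene of the other isoform differed as well. HIF1A was at 3.62 ± 0.25 CPM in WT of batch 1 and at 33.3 to 45.2 CPM on average in the 3 HIF-1α lines, and EPAS1, the gene of HIF-2α, was at 217 ± 31.6 CPM in WT, at 673 to 836 CPM in the 3 HIF-2α lines and at 91.7 ± 7.61 CPM in HIF-2α KIN. HIF1A was also called higher with HIF-2α than in WT of batch 1, at 13.7 ± 4.27 CPM (log2 1.92 ± 0.24, edgeR adjusted p = 1.23e-06), and was at 10.4 ± 1.55 CPM with HIF-2α and 3.29 ± 0.295 CPM in WT of batch 2. Of the markers of a renal epithelial line, PAX8, PAX2, KRT8, KRT18, VIM and CDH2 had reads in every library, whereas CA9 was at 0 in 7 libraries of batch 1 and 3 of batch 2.

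HIF dimers recognise a core of ACGTG or GCGTG, and the 250 bases upstream of each RefSeq transcription start (GRCh38.p14) were searched for both motifs on both strands. Of the 10 genes, 7 had an entry, and VEGFA, FLT4 and NRP1 had none. VEGFB, VEGFC, PGF and FLT1 held 1 match each, always GCGTG, and KDR, NRP2, VEGFD and the more upstream of the PGF starts held none. The windows of VEGFB, FLT1, NRP2 and the more downstream PGF start overlap annotated exons. The PGF stretch below spans the more upstream PGF start (chr14:74955764), and its motif lies just downstream of that start. Among 35116 promoters of this length, 43.2% held at least 1 of the motifs (ACGTG in 18.5% and GCGTG in 32.2%, a promoter with both counting in each), so that a match in this window is common. The matched stretches are shown because 3 of these genes are expressed ligands. They are written 5′ to 3′ on the strand of the gene, with the motif, or its reverse complement, in capitals.
VEGFB, 61 to 57 bases upstream, chr11:64234513-64234537, plus strand: ggtggggagcGCGTGtctgggtcac
VEGFC, 59 to 55 bases upstream, chr4:176792967-176792991, minus strand: ccgggctcggCACGCtccctccctc
PGF, 162 to 158 bases upstream of its more downstream start, chr14:74955745-74955769, minus strand: gagcccctcgCACGCactgcgggct
FLT1, 206 to 202 bases upstream, chr13:28495320-28495344, minus strand: agcacctcccCACGCgcgctcggcc

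The ligands VEGFA, VEGFB, VEGFC and PGF and both neuropilins were expressed in every library, whereas the receptor kinases and VEGFD were at or near 0. FLT1, the receptor shared by VEGFA, VEGFB and PGF, had no read in 25 of 27 libraries of batch 1 and in 10 of 15 of batch 2, with at most 4 and 10 reads. FLT4, the receptor of VEGFC and VEGFD, had no read in 19 of 27 and 14 of 15 libraries and at most 4 reads in any. VEGFD had no read in 23 of 27 and 9 of 15 libraries, with at most 5 and 2 reads. KDR, the main signalling receptor of VEGFA, was at or under 3 reads in 22 of 27 libraries of batch 1, while in batch 2 it had 3 to 36 reads per library and 218 in all. In batch 2 KDR averaged 0.284 ± 0.16 CPM with HIF-2α and 0.12 ± 0.0945 CPM in WT. These libraries overlapped, and no KDR comparison passed the test. At this depth a difference in FLT1, FLT4 or VEGFD between lines was not detectable. Annotated antisense genes overlap VEGFA, VEGFC, KDR, NRP1 and NRP2. Counting ignored strand, and in union mode a read on exons of both genes is left out of both.

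The expressed genes covered a wide range. VEGFA, at chr6:43770184-43786487 on the plus strand, spanned 96.5 to 1166 CPM in batch 1 and 140 to 1069 CPM in batch 2, and NRP2 spanned 207 to 426 CPM in batch 1. VEGFB, at chr11:64234584-64239264, spanned 33.6 to 114 and 23.2 to 55.9 CPM. VEGFC, at chr4:176683538-176792922, spanned 10.7 to 29.4 and 23.9 to 41.3 CPM. PGF, at chr14:74941834-74955626, had WT libraries between 0.349 and 1.39 CPM and reached 53.6 CPM with HIF-2α. Coordinates are those of GENCODE release 44 on hg38.

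**Figure D1:**
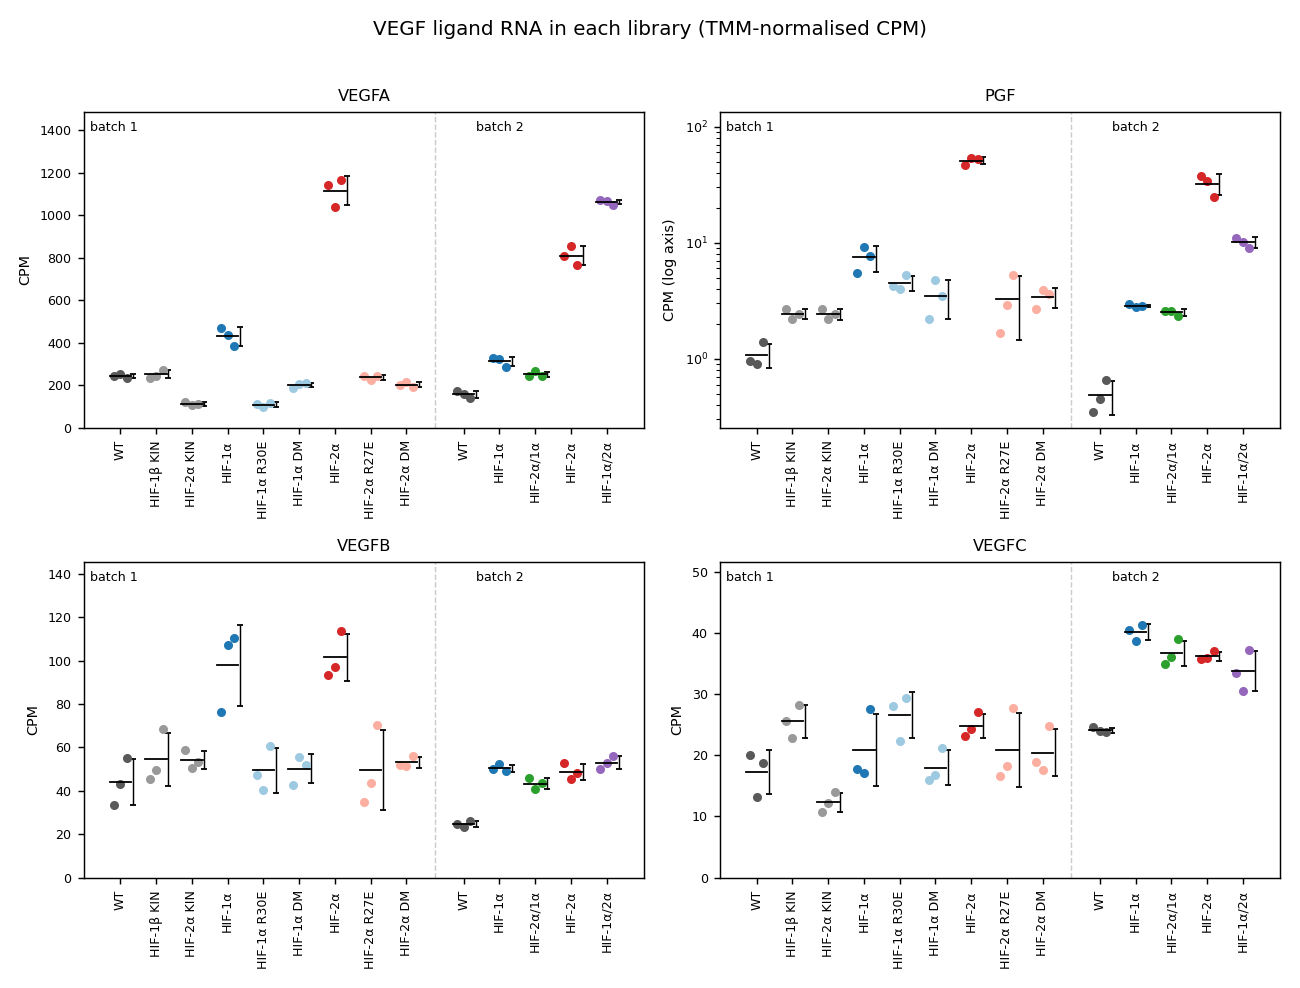
CPM of VEGFA, PGF (log axis), VEGFB and VEGFC in each library of both batches, by line; points are libraries, the line is the mean and the bar the SD of 3 libraries. VEGFA and PGF stand highest with HIF-2α in batch 1, whereas VEGFB is about as high with HIF-1α as with HIF-2α.

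The first question was how the ligands answer to each full-length HIF-α subunit. With HIF-2α, VEGFA, PGF and VEGFB rose in batch 1. VEGFA, the best known HIF target of the family and the ligand of both FLT1 and KDR, was at 245, 253 and 235 CPM in the 3 WT libraries and at 1141, 1038 and 1166 CPM in those with HIF-2α. The groups did not overlap, and the rise was 4.56-fold (log2 2.19 ± 0.14, edgeR adjusted p = 8.63e-12). With HIF-1α, VEGFA was at 469, 435 and 384 CPM, above every WT library but only 1.76-fold of WT, which passed the adjusted p (9.34e-05) and missed the fold threshold. Batch 2 gave the same order. VEGFA was at 170, 158 and 140 CPM in WT, at 327, 321 and 286 CPM with HIF-1α and at 809, 855 and 765 CPM with HIF-2α. None of these 3 groups overlapped another. The rise with HIF-2α was 5.18-fold (log2 2.37 ± 0.06, adjusted p = 3.8e-32), and HIF-1α gave a 1.99-fold higher level (adjusted p = 1.57e-18), just under the fold threshold. Without HIF-1α library 3, WT library 1 or WT library 2 that value crossed the threshold (log2 1.06, 1.03 and 1.01).

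PGF, which binds FLT1 but not KDR, rose with either subunit and far more with HIF-2α. It was at 0.966, 0.909 and 1.39 CPM in WT of batch 1, at 5.48, 9.24 and 7.76 CPM with HIF-1α and at 47.1, 53.6 and 52.6 CPM with HIF-2α. The 3 sets of libraries did not overlap. The rise was 6.84-fold with HIF-1α (log2 2.77 ± 0.32, adjusted p = 6.36e-07) and 46.7-fold with HIF-2α (log2 5.54 ± 0.35, adjusted p = 1.25e-11). In batch 2 PGF went from 0.484 ± 0.155 CPM in WT to 2.86 ± 0.0753 CPM with HIF-1α and to 37.8, 33.9 and 25 CPM with HIF-2α, rises of 5.93-fold and 66.8-fold (adjusted p = 9.46e-17 and 7.18e-32). Among the 6 expressed members PGF had the largest change in these 4 comparisons.

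VEGFB, a ligand of FLT1 and NRP1, had overlapping levels with either subunit. It was at 33.6, 43.2 and 55.1 CPM in WT of batch 1, at 76.3, 107 and 110 CPM with HIF-1α and at 93.4, 97.3 and 114 CPM with HIF-2α. Both transgene lines lay above all WT libraries and overlapped each other. VEGFB rose 2.22-fold with HIF-1α (log2 1.15 ± 0.22, adjusted p = 0.000869) and 2.31-fold with HIF-2α (log2 1.21 ± 0.22, adjusted p = 0.000347). The call with HIF-1α ended without WT library 1 (log2 0.99, adjusted p = 0.0136). A fit that blocks on replicate number kept it (log2 1.17, edgeR adjusted p = 1.45e-06). In batch 2 VEGFB was at 24.6 ± 1.36 CPM in WT, 50.4 ± 1.59 CPM with HIF-1α and 48.8 ± 3.71 CPM with HIF-2α. It rose 2.05-fold with HIF-1α and was 1.99-fold of WT with HIF-2α (adjusted p = 4.95e-17 and 9.01e-17), the latter so near the fold threshold that with DESeq2, RLE size factors or only the groups compared its log2 change was 1.01 in place of 0.99.

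VEGFC, a growth factor of lymphatic vessels, passed no test in batch 1, where WT was at 20, 13.2 and 18.7 CPM. In batch 2, with less spread between libraries, it was at 24.1 ± 0.41 CPM in WT, 40.2 ± 1.31 CPM with HIF-1α and 36.2 ± 0.738 CPM with HIF-2α. These levels were 1.67-fold and 1.5-fold of WT, past the adjusted p (3.77e-12 and 8.71e-10) and under the fold threshold. The HIF-2α value of batch 1 was 1.43-fold (adjusted p = 0.11).

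The neuropilins differed from the ligands and from each other. NRP1, the co-receptor of VEGFA in the blood vasculature (chr10:33177492-33336262, minus strand), was higher with HIF-1α and not with HIF-2α. It was at 45.7, 55.3 and 43.4 CPM in WT of batch 1, at 101, 125 and 84.9 CPM with HIF-1α and at 48, 50.9 and 50.7 CPM with HIF-2α. The HIF-1α libraries lay above both other groups and the HIF-2α libraries inside the WT range. NRP1 rose 2.15-fold with HIF-1α (log2 1.11 ± 0.21, adjusted p = 0.000708), a call that ended without HIF-1α library 2 (log2 0.95, adjusted p = 0.00965). A fit that blocks on replicate number kept it (log2 1.10, edgeR adjusted p = 2.19e-07). In batch 2 NRP1 was at 74.5, 72.7 and 71.2 CPM in WT, at 133, 135 and 124 CPM with HIF-1α and at 58.9, 61.5 and 61.9 CPM with HIF-2α. Here the HIF-2α libraries lay below every WT library. The ratios to WT were 1.79-fold with HIF-1α and 0.835-fold with HIF-2α (adjusted p = 1.02e-16 and 0.000152), both under the fold threshold.

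NRP2, a co-receptor of VEGFC that also binds semaphorins (chr2:205681990-205798133, plus strand), was lower with HIF-2α. It was at 368, 369 and 365 CPM in WT of batch 1, at 353, 380 and 381 CPM with HIF-1α and at 229, 207 and 256 CPM with HIF-2α. The HIF-2α libraries were the lowest of the batch. The level was 0.628-fold of WT (log2 -0.67 ± 0.13, adjusted p = 0.000664), under the fold threshold, and the p was past the threshold without the filter on low counts (0.0201) and with only the groups compared in the fit (0.0124). In batch 2 NRP2 was at 290, 294 and 313 CPM in WT, at 292, 294 and 283 CPM with HIF-1α and at 154, 162 and 152 CPM with HIF-2α, 0.522-fold of WT (log2 -0.94 ± 0.05, adjusted p = 2.76e-19). Of the 25 comparisons made, NRP2 was called in 0 and passed the adjusted p in 10, while PGF was called in 18 and VEGFA in 13. NRP1 and VEGFB were called in 6 and 5, and VEGFC in 0 with 5 past the adjusted p.

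**Figure D2:**
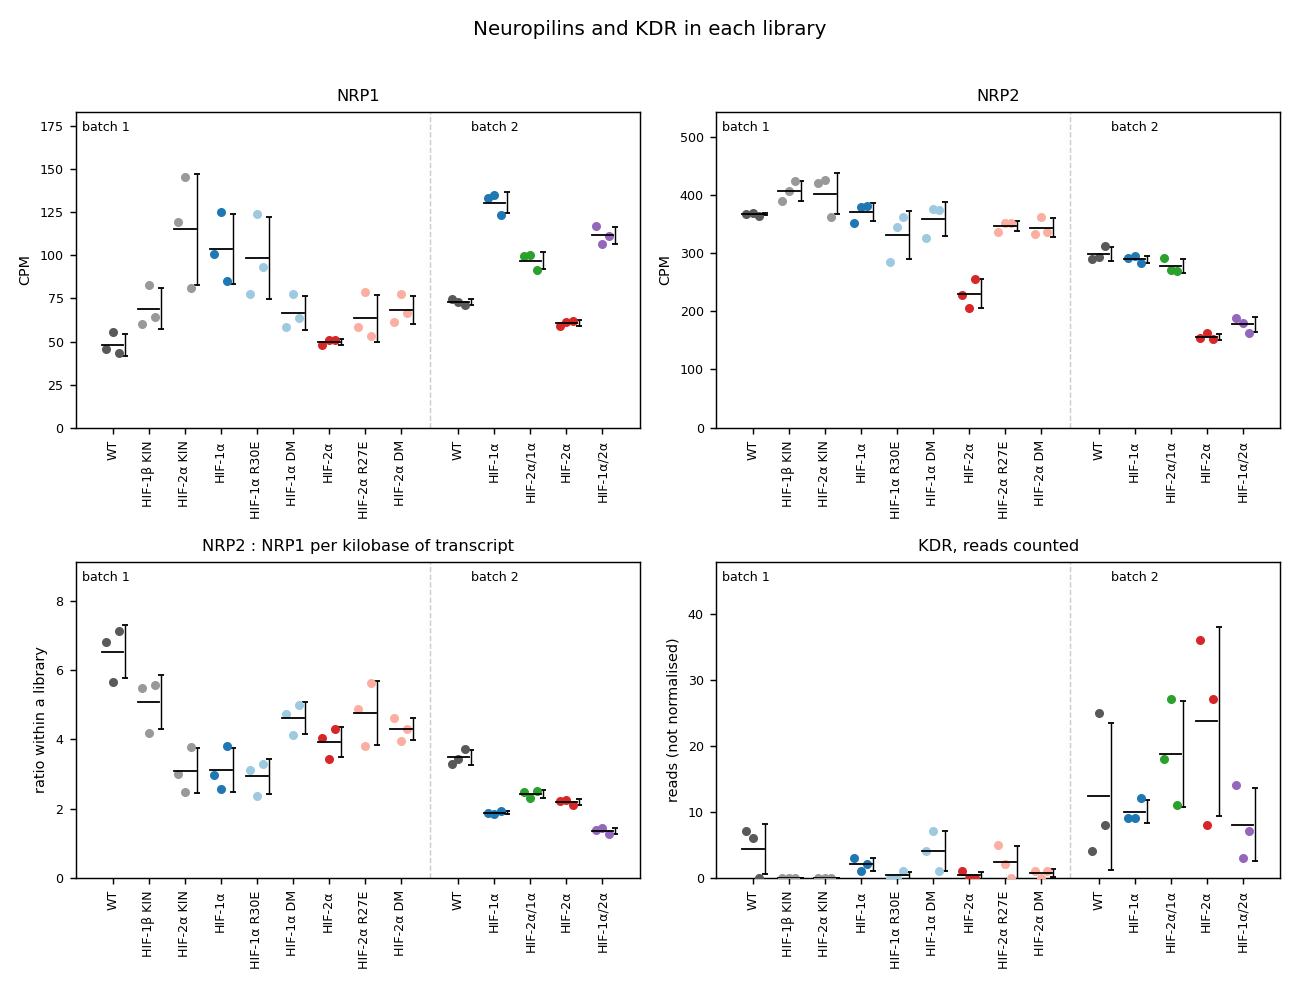
CPM of NRP1 and NRP2, their ratio per kilobase of transcript and the reads of KDR in each library of both batches, by line, with the mean and SD of 3 libraries. NRP1 is high with HIF-1α and at or below WT with HIF-2α, NRP2 is lowest with HIF-2α, and KDR stays between 0 and 36 reads.

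Counted over the family, the HIF-1α line had 3 of 7 tested genes called higher than WT in batch 1 (PGF, VEGFB and NRP1) and 2 of 9 in batch 2 (PGF and VEGFB), where 3.78% and 4.39% of all tested genes were called in either direction. The HIF-2α line had 3 of 7 in batch 1 (VEGFA, PGF and VEGFB) and 2 of 9 in batch 2 (VEGFA and PGF), against 5.73% and 7.55% of all genes. In comparisons with WT the subunit cannot be told apart from selection and from carrying a tagged transgene. In comparisons between transgene lines, the construct cannot be told apart from other differences between those lines. PGF was also called higher than WT in each mutant line of batch 1, and NRP1 in HIF-1α R30E. The median log2 change of the 6 expressed members was 0.96 (batch 1) and 0.92 (batch 2) with HIF-1α and 0.86 and 0.79 with HIF-2α, and that of all tested genes was -0.04, 0.03, -0.08 and 0.05 in the same order. Over all tested members, those near 0 included, the medians were 0.81, 0.99, 0.52 and 1.22, so that the order of the subunits in batch 2 turned with the genes taken in. These libraries are bulk RNA, in which fewer cells of a type and less RNA per cell cannot be told apart.

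Set directly against HIF-1α, HIF-2α gave more VEGFA and PGF and less NRP1 in both batches. The same 3 genes were called each time, of 7 and 9 tested, against 2.4% and 3.79% of all genes. VEGFA was 2.6-fold higher with HIF-2α in each batch (log2 1.38 ± 0.13 and 1.38 ± 0.06, adjusted p = 5.45e-08 and 1.61e-23). PGF was 6.82-fold and 11.3-fold higher (log2 2.77 ± 0.31 and 3.49 ± 0.13). NRP1 was at 0.482-fold and 0.465-fold of its level with HIF-1α (adjusted p = 0.00163 and 1.34e-20). In batch 1 the NRP1 call ended without HIF-1α library 2 (log2 -0.90, adjusted p = 0.0203) and without HIF-2α library 1 (log2 -1.05, adjusted p = 0.0105). A fit that blocks on replicate number kept that call (log2 -1.03, edgeR adjusted p = 9.71e-07). NRP2 was at 0.621-fold and 0.539-fold, past the adjusted p (0.00111 and 3.49e-18) but not the fold, and in batch 1 its p was past the threshold in 3 of 13 alternatives, up to 0.0345. VEGFB differed by a log2 of 0.05 in batch 1 and -0.04 in batch 2, and neither passed.

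Whether the response to a subunit differed between batches was tested by fitting both batches jointly, with their WT libraries and those of the full-length subunits. In the edgeR fit no member passed for either subunit, where 0.00374% and 0% of all genes were called. At an unadjusted p under 0.05 the counts of members were 0 for HIF-1α, beside 1121 of all genes, and 3 for HIF-2α (KDR, NRP1 and NRP2). Over all genes the HIF-2α count was 0 in edgeR, 2425 at an unadjusted p under 0.05 and 71 with DESeq2. The PGF response to HIF-2α differed between batches by a log2 of 0.46, with a 95% interval from -0.15 to 1.06, so that differences up to that size are not excluded by these libraries. The batches used different RNA extraction and library kits, which cannot be told apart from the batch itself. Transgene RNA was not equal either. HIF1A averaged 45.2 CPM in the HIF-1α line of batch 1 and 148 CPM in that of batch 2 (WT 3.62 and 3.29 CPM). EPAS1 averaged 673 and 473 CPM in the HIF-2α lines of the same batches (WT 217 and 142 CPM). The part of transgene level was not tested.

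The next comparison asked which of these levels differed between a functional subunit and its DNA-binding or dimerization mutants. VEGFA differed for both isoforms. In the HIF-1α line it was 3.96-fold that of HIF-1α R30E (log2 1.98 ± 0.13, adjusted p = 8.05e-11) and 2.15-fold that of HIF-1αDM (adjusted p = 2.59e-06). EPAS1 was called higher in the HIF-1α line in the same comparisons, at 342 ± 39.3 CPM against 154 ± 32.4 and 170 ± 21.3 CPM (log2 1.15 ± 0.20 and 1.01 ± 0.20), and its part in the VEGFA difference was not tested. VEGFA was 4.69-fold higher with HIF-2α than with HIF-2α R27E and 5.54-fold higher than with HIF-2αDM (log2 2.23 ± 0.14 and 2.47 ± 0.14, adjusted p = 1.14e-11 and 1.49e-12). The HIF-1α R30E line did not sit at the WT level. VEGFA was at 112, 96.5 and 117 CPM there, below every library of every other line except HIF-2α KIN, and had fallen to 0.444-fold of WT (log2 -1.17 ± 0.13, adjusted p = 6.74e-07). With HIF-1αDM it was at 187, 204 and 208 CPM and with HIF-2αDM at 200, 213 and 190 CPM, all below the WT libraries, though neither passed (adjusted p = 0.517 and 0.568). With HIF-2α R27E it was at 244, 224 and 245 CPM, overlapping WT.

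In the main fit PGF was called against the mutants of HIF-2α and not against those of HIF-1α. It was 15.5-fold higher with HIF-2α than with HIF-2α R27E and 15-fold higher than with HIF-2αDM (log2 3.96 ± 0.32 and 3.91 ± 0.32, adjusted p = 1.79e-09 and 1.54e-09). The HIF-1α line did not pass against its own mutants: the log2 difference was 0.73 from HIF-1α R30E (adjusted p = 0.218) and 1.11 from HIF-1αDM (adjusted p = 0.0361). A call against HIF-1αDM was made with DESeq2 and without the filter on low counts (adjusted p = 0.00719 and 0.000284). The HIF-1α libraries, at 5.48 to 9.24 CPM, still lay above every library of both mutants. Whether the isoforms differed in this was not tested. All 4 mutant lines held more PGF than WT. It was at 4.21, 4.02 and 5.25 CPM with HIF-1α R30E, a 4.11-fold rise (log2 2.04 ± 0.31, adjusted p = 6.28e-05). With HIF-1αDM it was at 2.21, 4.75 and 3.45 CPM, with HIF-2α R27E at 1.68, 2.9 and 5.29 CPM and with HIF-2αDM at 2.68, 3.89 and 3.64 CPM, rises of 3.17-fold, 3.01-fold and 3.11-fold (adjusted p = 0.00352, 0.00526 and 0.00398).

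Each of the last 3 of these PGF calls ended in several of the fits with 1 library left out. For HIF-1αDM the call ended without HIF-1αDM library 2 or 3 or WT library 1 or 2, with adjusted p from 0.0134 to 0.0549, and with only the groups compared in the fit (0.0177). For HIF-2α R27E it ended without R27E library 2 or 3 or WT library 1 or 2 (0.0101 to 0.0967), without the libraries numbered 3 (0.063) and with only the groups compared (0.34). For HIF-2αDM it ended without DM library 2 or 3 or WT library 1 or 2 (0.0199 to 0.0502). In none of these did the direction turn. A fit that blocks on replicate number kept the calls of HIF-1αDM and HIF-2α R27E (edgeR adjusted p = 0.000108 and 0.000269). All 3 calls held with DESeq2 and without the filter on low counts.

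VEGFB was higher with the functional subunits than with their mutants by close to 2-fold. It was 2.04-fold higher with HIF-2α than with HIF-2α R27E, where it was at 34.9, 43.7 and 70.3 CPM (log2 1.03 ± 0.22, adjusted p = 0.00257), and 1.91-fold of HIF-2αDM (adjusted p = 0.0058, past the threshold in 6 of 13 alternatives, up to 0.0415). The call against HIF-2α R27E ended in the fit of only the groups compared and without R27E library 1 or 2 or HIF-2α library 2 or 3 (adjusted p = 0.0114 to 0.0419). The fit that blocks on replicate number kept it (log2 1.07, edgeR adjusted p = 5.44e-06). Against HIF-1α R30E and HIF-1αDM the HIF-1α line was higher by a log2 of 0.98 and 0.97 (adjusted p = 0.00767 and 0.0115). The difference from HIF-1α R30E was called without R30E library 3 (log2 1.16), without HIF-1α library 1 (1.13) and without the libraries numbered 3 (1.07), and that from HIF-1αDM without HIF-1α library 1 (1.12). In 5 of 13 alternatives the difference from HIF-1α R30E missed the adjusted p, up to 0.0531. For the neuropilins, NRP1 had risen 2.04-fold over WT with HIF-1α R30E as well, at 77.5, 124 and 93.2 CPM (log2 1.03 ± 0.21, adjusted p = 0.00193), overlapping the HIF-1α line. That call ended without R30E library 2 (adjusted p = 0.0204), WT library 1 (0.0157) or WT library 3 (0.0185). NRP2 was at 0.664-fold of HIF-2α R27E and 0.67-fold of HIF-2αDM in the HIF-2α line (adjusted p = 0.00357 and 0.00391), and both p-values were past the threshold in 6 of 13 alternatives, up to 0.108 and 0.0837.

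Of the 7 tested genes, HIF-1α against HIF-1α R30E and against HIF-1αDM called 1 each (VEGFA), where 1.75% and 1.36% of all genes were called. HIF-2α against HIF-2α R27E called 3 and against HIF-2αDM 2, where 3.66% and 3.99% were called. Against WT, HIF-1α R30E called 3 (PGF and NRP1 higher, VEGFA lower; 2.61% of all genes), and HIF-1αDM, HIF-2α R27E and HIF-2αDM 1 each (PGF; 0.431%, 0.483% and 0.47%). With the replicate block, which the pairing check allows for HIF-1αDM and HIF-2α R27E, all-gene calls went from 101 to 204 and from 113 to 204. Endothelial markers were not at 1 level in these lines. Of 13 markers, EGFL7 held most reads, at 32.1 to 129 CPM in batch 1. The sum over the list was 33.8 to 46.6 CPM in WT, 67.2 to 95.2 with HIF-1α, 78.4 to 136 with HIF-1α R30E, 70.8 to 77 with HIF-1αDM, 44.1 to 53 with HIF-2α, 54.6 to 102 with HIF-2α R27E and 79.2 to 89.2 with HIF-2αDM. PECAM1, CDH5, VWF, EMCN and ERG had at most 7 reads in any library of batch 1 and at most 9 in batch 2, and LYVE1 and PROX1 at most 1 and 2. ESAM, TIE1, ROBO4, CLDN5 and TEK reached 430, 232, 114, 82 and 16 reads in batch 1 and 226, 317, 113, 34 and 33 in batch 2. Of 8 markers tested in batch 1, those called against WT in these lines were all higher. They numbered 3 with HIF-1α, 2 with HIF-1α R30E and 2 with HIF-2αDM (3.78%, 2.61% and 0.47% of all genes). HIF-1αDM and HIF-2α R27E had 1 each and HIF-2α 0 (0.431%, 0.483% and 5.73%). The part of these markers in the results was not tested.

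**Figure D3:**
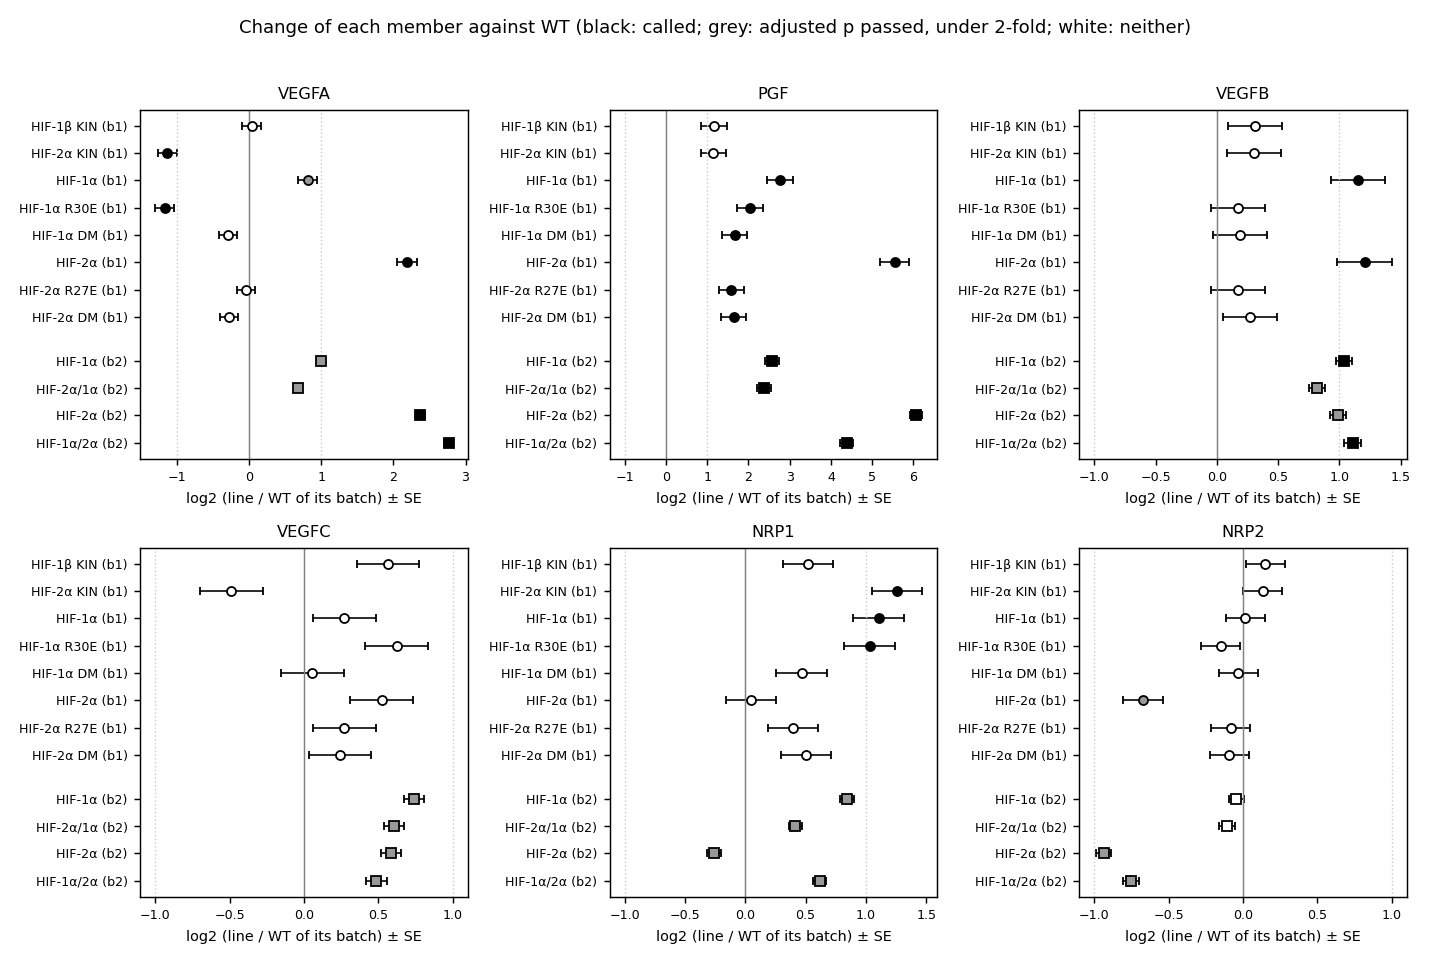
Log2 change against WT of the same batch (± standard error) of the 6 expressed members in each line; circles are batch 1 and squares batch 2, black marks a called change, grey an adjusted p of at most 0.01 under 2-fold and white neither. PGF lies right of 0 in every line, VEGFA lies furthest left in HIF-2α KIN and HIF-1α R30E, and NRP2 lies furthest left with HIF-2α.

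The knock-in clones, in which the endogenous protein is tagged, were set against WT. Each line is 1 clone, so the tag cannot be told apart from other differences of that clone. The paper states that expression profiles of both edited lines were not significantly altered from those of unedited cells. That statement concerns whole profiles, whereas the values below are RNA levels of single genes. The paper also reports tagged protein near WT levels by western blot and similar binding across the genome by ChIP-seq. In HIF-2α KIN, VEGFA was at 119, 105 and 110 CPM, below every WT library, and had fallen to 0.455-fold (log2 -1.14 ± 0.13, adjusted p = 6.64e-07). NRP1 was at 119, 145 and 81.1 CPM, above every WT library, and had risen 2.39-fold (log2 1.26 ± 0.21, adjusted p = 0.000138). These were the 2 calls among 7 tested genes, where 4.11% of all genes were called, and both held in all 13 alternatives. EPAS1 was itself lower in this clone, with a log2 change of -1.24 ± 0.20, and the summed endothelial markers were at 57.1 to 90.8 CPM. Their part in the change was not tested. In HIF-1β KIN, VEGFA was at 236, 244 and 271 CPM, overlapping WT, and edgeR called 0 of 7 members, where 1.37% of all genes were called. At an unadjusted p under 0.05 there were 4 (PGF, NRP1, VEGFC and KDR), beside 3034 of 23410 genes, and DESeq2 called 1, PGF. KDR had 0 reads in every HIF-1β KIN library and 7, 6 and 0 in those of WT.

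PGF was above WT in both clones. It was at 2.71, 2.21 and 2.43 CPM in HIF-1β KIN and at 2.69, 2.19 and 2.41 CPM in HIF-2α KIN, all above the highest WT library. The changes were 2.24-fold and 2.22-fold (log2 1.16 ± 0.31 and 1.15 ± 0.31) and missed the adjusted p (0.0316 and 0.0144). Libraries with the same number deviated together in these comparisons. In the fit that blocks on replicate number both passed (log2 1.19 and 1.17, adjusted p = 0.0028 and 0.00138). They also passed with DESeq2 and without the filter on low counts.

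In batch 2 the structured part and the IDR were exchanged between the isoforms, each construct in its own stable line. The exchanged part therefore cannot be told apart from other differences between the lines. VEGFA went with the IDR. It was at 244, 266 and 240 CPM with HIF-2α/1α, near the 286 to 327 CPM of HIF-1α, and at 1069, 1067 and 1049 CPM with HIF-1α/2α, above the 765 to 855 CPM of HIF-2α. No group overlapped another. Replacing the IDR of HIF-1α by that of HIF-2α gave 3.41-fold more VEGFA (log2 1.77 ± 0.06, adjusted p = 2.13e-27), and the same exchange on the structured part of HIF-2α gave 3.24-fold more (log2 1.69 ± 0.06, adjusted p = 1.37e-26). These effects differed by a log2 of -0.08, with a 95% interval from -0.23 to 0.08 (adjusted p = 0.666). With either IDR, the structured part of HIF-2α gave slightly less VEGFA than that of HIF-1α, at 0.803-fold with the HIF-1α IDR and 0.762-fold with the HIF-2α IDR (adjusted p = 0.000204 and 6.28e-07), both under the fold threshold. Against WT, VEGFA rose 6.8-fold with HIF-1α/2α (log2 2.76 ± 0.06, adjusted p = 1.94e-34), and was 1.6-fold of WT with HIF-2α/1α (adjusted p = 4.56e-13), under the fold threshold.

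PGF differed with both portions. It was at 2.6, 2.6 and 2.34 CPM with HIF-2α/1α, close to the 2.86 ± 0.0753 CPM of HIF-1α, and at 11.1, 10.1 and 8.96 CPM with HIF-1α/2α, between HIF-1α and the 32.2 ± 6.59 CPM of HIF-2α. Exchanging the IDR gave 3.52-fold more PGF on the structured part of HIF-1α (log2 1.81 ± 0.12, adjusted p = 2.98e-16) and 12.8-fold more on that of HIF-2α (log2 3.68 ± 0.13, adjusted p = 1.89e-26). The difference of these effects, the interaction, was a log2 of 1.86 ± 0.17 (adjusted p = 9.26e-11). Read the other way, the structured part of HIF-2α gave 3.2-fold more PGF with the HIF-2α IDR (log2 1.68 ± 0.11, adjusted p = 6.78e-16), whereas with the HIF-1α IDR the log2 difference was -0.19 (adjusted p = 0.566). Against WT, PGF rose 5.21-fold with HIF-2α/1α and 20.9-fold with HIF-1α/2α (adjusted p = 2.75e-15 and 1.28e-26). PGF has a GCGTG match 162 to 158 bases upstream of its more downstream start. That match lies just downstream of its other start, whose own window has none. VEGFB, VEGFC and FLT1 have a match as well, and 43.2% of all promoters searched held at least 1 motif. The part of these matches in the levels was not tested.

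VEGFB was above every WT library in all 4 transgene lines of batch 2, at 43.4 ± 2.56 CPM with HIF-2α/1α and 52.9 ± 2.98 CPM with HIF-1α/2α beside 50.4 CPM with HIF-1α and 48.8 CPM with HIF-2α. The HIF-2α/1α libraries, at 40.7 to 45.8 CPM, lay below every library of HIF-1α and HIF-1α/2α and overlapped those of HIF-2α, and none of the 5 comparisons made among the 4 lines passed. It rose 2.16-fold over WT with HIF-1α/2α (adjusted p = 1.91e-18) and was 1.77-fold of WT with HIF-2α/1α (adjusted p = 1.27e-13), under the fold threshold. Its interaction was a log2 of 0.10 and did not pass. VEGFC was at 36.7 ± 2.06 CPM with HIF-2α/1α and 33.8 ± 3.34 CPM with HIF-1α/2α, 1.52-fold and 1.4-fold of WT (adjusted p = 1.17e-09 and 7.2e-08), under the fold threshold. It was 0.841-fold in HIF-1α/2α relative to HIF-1α (adjusted p = 0.00319), a p that was past the threshold in 4 of 12 alternatives, up to 0.0717.

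NRP1 passed the adjusted p in all 4 exchanges and reached 2-fold in none. It was at 99.8, 100 and 91.4 CPM with HIF-2α/1α and at 117, 107 and 111 CPM with HIF-1α/2α, so that both chimeras lay between HIF-1α at 131 ± 6.12 CPM and HIF-2α at 60.8 ± 1.62 CPM. The IDR of HIF-2α gave 0.854-fold the NRP1 of the HIF-1α IDR on the structured part of HIF-1α and 0.626-fold on that of HIF-2α (adjusted p = 0.00107 and 1.69e-13), both under the fold threshold. The first of these p-values was past the threshold without HIF-1α library 1 (0.0153) or 2 (0.0195) or HIF-1α/2α library 2 (0.0177). The interaction was a log2 of -0.45 ± 0.08 (adjusted p = 5.96e-05) and passed in all 15 alternatives. The structured part of HIF-2α gave 0.743-fold the NRP1 of that of HIF-1α with the HIF-1α IDR and 0.544-fold with the HIF-2α IDR (adjusted p = 2.81e-07 and 1.12e-16). Against WT, NRP1 was 1.33-fold with HIF-2α/1α and 1.53-fold with HIF-1α/2α (adjusted p = 7.44e-08 and 7.74e-13).

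NRP2 went with the IDR, in the direction opposite to VEGFA. It was at 291, 271 and 270 CPM with HIF-2α/1α, overlapping WT and HIF-1α, and at 189, 180 and 163 CPM with HIF-1α/2α, above the 152 to 162 CPM of HIF-2α. The IDR of HIF-2α gave 0.612-fold the NRP2 on the structured part of HIF-1α and 0.563-fold on that of HIF-2α (log2 -0.71 ± 0.05 and -0.83 ± 0.05, adjusted p = 5.58e-15 and 4.9e-17). Both were past the adjusted p in all 12 alternatives and under the fold threshold. The interaction was a log2 of -0.12 (adjusted p = 0.376). HIF-2α and HIF-1α/2α differed by 0.88-fold (adjusted p = 0.00856), which was past the threshold in 8 of 12 alternatives, up to 0.0943.

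Of the 9 tested members of batch 2, the exchange of the IDR called 2 on either structured part, VEGFA and PGF, where 4.69% of all genes were called on that of HIF-1α and 3.18% on that of HIF-2α. The exchange of the structured part called 1, PGF, with the HIF-2α IDR (2.1% of all genes). With the HIF-1α IDR edgeR called 0 (0.554% of all genes) and DESeq2 0. At an unadjusted p under 0.05 edgeR had 3 (NRP1, VEGFA and VEGFB), beside 4330 of 28724 genes. The interaction, judged by the adjusted p alone, was passed by PGF and NRP1, where 5.39% of all genes passed. Against WT the chimera HIF-2α/1α called 1 (PGF; 3.48% of all genes) and HIF-1α/2α called 3 (PGF, VEGFA and VEGFB; 7.72%). All of these comparisons share the lines of 1 batch, and those against WT share the 3 WT libraries. EPAS1 and HIF1A were not at equal levels in these lines. HIF1A averaged 148 CPM in the HIF-1α line, 107 CPM in HIF-2α/1α and 108 CPM in HIF-1α/2α. EPAS1 averaged 473 CPM in the HIF-2α line, 231 CPM in HIF-2α/1α and 572 CPM in HIF-1α/2α. These reads do not give the level of a chimera as such, since each gene is read from part of it, and the part of transgene level in these results was not tested. The summed endothelial markers were at 13.8 to 15.1 CPM in WT of batch 2, at 25.4 to 29.1 with HIF-1α and 27.4 to 30.4 with HIF-2α/1α, and at 18.3 to 19.1 with HIF-2α and 18 to 19.9 with HIF-1α/2α. All 4 lines lay above WT, and those with a HIF-1α IDR above those with a HIF-2α IDR. EGFL7 alone held most of this sum, at 12.2 to 27.6 CPM in batch 2. Of 11 markers tested there, HIF-2α/1α had 2 called higher than WT and 1 lower (3.48% of all genes). HIF-1α, HIF-2α and HIF-1α/2α had 2 higher each (4.39%, 7.55% and 7.72%). The part of these markers was not tested either.

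**Figure D4:**
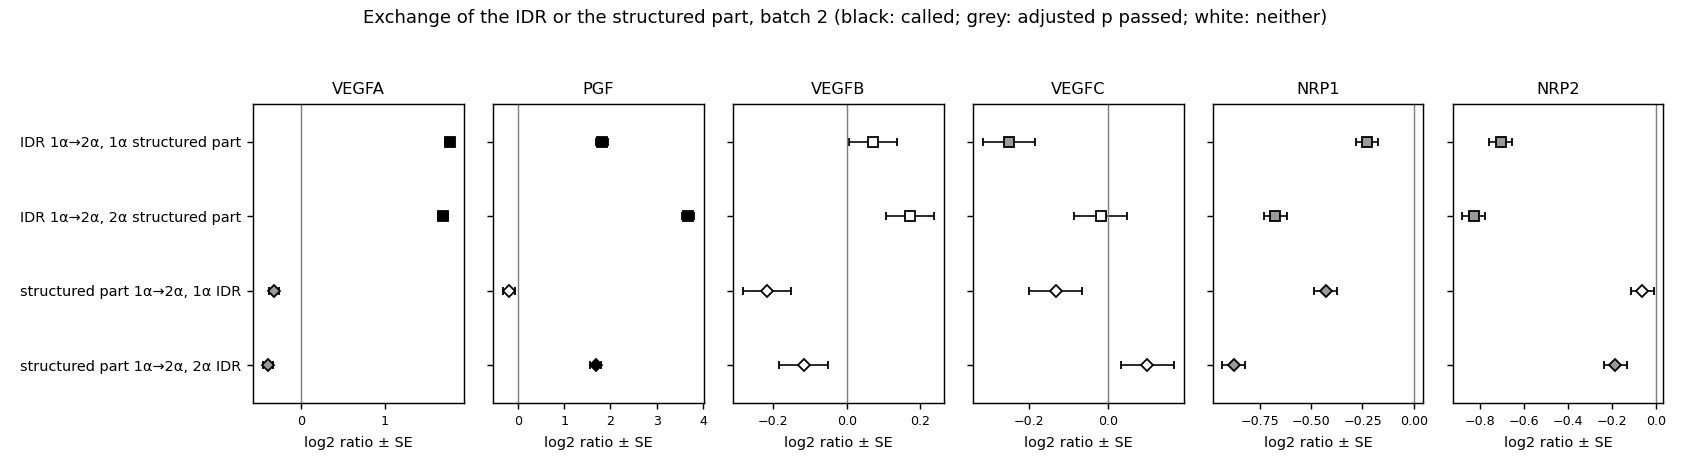
Log2 change (± standard error) of the 6 expressed members of batch 2 when the IDR is exchanged on either structured part, and when the structured part is exchanged with either IDR. VEGFA lies at 1.77 and 1.69 for the IDR exchanges, whereas PGF lies at 1.81 and 3.68.

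Levels of different genes can be set side by side only per length, and for this the CPM were divided by the length of the MANE Select transcript in kilobases. On this scale VEGFA made up 67.6% ± 4.69 of the summed ligand level in WT of batch 1, VEGFB 24.1% ± 4.85, VEGFC 7.64% ± 1.72 and PGF 0.62% ± 0.127. With HIF-2α the shares of VEGFA and PGF were 76.2% ± 1.61 and 7.26% ± 0.706, and that of VEGFB 13.8% ± 0.991. VEGFA had its lowest shares in HIF-1α R30E and HIF-2α KIN, at 42% ± 2.16 and 45.5% ± 0.425, where VEGFB came to 38% ± 2.57 and 44.4% ± 0.824. In batch 2 the VEGFA share was 63.7% ± 2.78 in WT. The lines with a HIF-1α IDR were close to this, at 64.5% ± 1.57 (HIF-1α) and 62.4% ± 2.1 (HIF-2α/1α), and those with a HIF-2α IDR were at 78.5% ± 1.33 (HIF-2α) and 85.5% ± 0.675 (HIF-1α/2α). PGF reached 6.45% ± 1.08 in the HIF-2α line and 1.68% ± 0.17 in HIF-1α/2α. Both lines with a HIF-2α IDR thus had a larger VEGFA share than the other 3 groups, with no overlap of libraries, and full-length HIF-2α had the largest PGF share. The order depends on the length used. With the union of all exons VEGFA came to 37.1% and VEGFB to 48% in WT of batch 1, and to 52.6% and 35% with HIF-2α.

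On the same per-length scale NRP2 exceeded NRP1 in every library, and the ratio of NRP2 to NRP1 was highest in WT. It was 6.54 ± 0.775 in WT of batch 1, 3.12 ± 0.628 with HIF-1α, 2.93 ± 0.5 with HIF-1α R30E, 3.09 ± 0.654 in HIF-2α KIN and 3.93 ± 0.436 with HIF-2α. In batch 2 it was 3.49 ± 0.218 in WT, 1.88 ± 0.0494 in the HIF-1α line, 2.18 ± 0.0827 in the HIF-2α line, 2.43 ± 0.113 in HIF-2α/1α and 1.35 ± 0.095 in HIF-1α/2α. HIF-1α came to a lower ratio through more NRP1 and HIF-2α through less NRP2, and HIF-1α/2α, with NRP1 above WT and NRP2 below it, had the lowest ratio.

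Genes around the ligands and receptors were taken from 3 lists. VEGF receptor signalling, the adaptors, kinases and phospholipases downstream of KDR, had 41 of 42 genes tested in each batch. Against WT it had 2 genes higher with HIF-2α in batch 1 and 3 in batch 2, or 4.88% and 7.32% of the list beside 5.73% and 7.55% of all genes. With HIF-1α it had 1 and 2, or 2.44% and 4.88% beside 3.78% and 4.39%, so that these shares were near those of all genes. The chimera HIF-2α/1α had 1 and HIF-1α/2α had 2 (3.48% and 7.72% of all genes), and HIF-2α KIN and HIF-1α R30E had 1 each (4.11% and 2.61%), all higher, which were all of its calls against WT. MAPK3, which encodes ERK1, rose with HIF-2α in batch 1 from 44.1 ± 4.75 to 96 ± 16.2 CPM (log2 1.12 ± 0.15, adjusted p = 6.55e-06). PLCG2, a phospholipase of blood cells, was called at low level in 7 of the comparisons with WT, for example at 0.582 ± 0.136 CPM with HIF-2α and 0.0361 ± 0.0355 CPM in WT of batch 1, the latter near the limit of detection. The adaptor SHB, which binds KDR, was higher with HIF-2α than with HIF-1α in batch 1, at 101 ± 16.4 and 42.3 ± 3.17 CPM (log2 1.26 ± 0.18). NFATC2 was called higher in that comparison too, at 0.955 ± 0.189 and 0.112 ± 0.0596 CPM (log2 3.07 ± 0.60, edgeR adjusted p = 0.00128). In batch 2 the same comparison again called NFATC2 higher, and VAV3 lower, and SHB was not called. The transcription factor NFATC2 was higher with HIF-2α than with HIF-2α/1α (1.57 ± 0.2 and 0.187 ± 0.204 CPM, adjusted p = 3.31e-07). It was also higher than with HIF-1α/2α, which was at 0.15 ± 0.0601 CPM (log2 3.34 ± 0.44). The median log2 change of the list with HIF-2α was 0.20 and 0.12 in the 2 batches, beside -0.08 and 0.05 for all genes.

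Class 3 semaphorins and their plexin partners, the other ligands and co-receptors of the neuropilins, made up the second list. Of 12 genes tested in batch 1, HIF-2α raised 2 and lowered 2 (5.73% of all genes called), HIF-1α raised 2 (3.78%), HIF-1α R30E raised 3 (2.61%), HIF-2α KIN raised 1 and lowered 4 (4.11%), and HIF-1β KIN lowered 1 (1.37%). Of 13 in batch 2, HIF-2α raised 2 and lowered 1 (7.55%), HIF-1α and HIF-2α/1α raised 3 each (4.39% and 3.48%) and HIF-1α/2α raised 3 and lowered 3 (7.72%). PLXNA2, a semaphorin receptor that pairs with neuropilins, rose from 5.85 ± 1.23 to 96.3 ± 14.3 CPM with HIF-2α in batch 1 (log2 4.04 ± 0.26, adjusted p = 1.47e-11) and from 4.98 ± 0.519 to 78.2 ± 3.77 CPM in batch 2 (log2 3.97 ± 0.08, adjusted p = 3.27e-35). It fell to 0.535 ± 0.213 CPM in HIF-2α KIN (log2 -3.49 ± 0.28), the clone in which VEGFA also fell. SEMA3F, a ligand of NRP2, rose with HIF-1α from 29.3 ± 8.28 to 112 ± 18.4 CPM and to 107 ± 24.4 CPM with HIF-1α R30E (adjusted p = 0.000167 and 0.000324). It was at 5 ± 0.756 CPM with HIF-1α/2α and 44.7 ± 5.92 CPM with HIF-1α (log2 -3.16 ± 0.11). SEMA3A, a ligand of NRP1, was lower with HIF-2α than with HIF-1α in both batches, at 0.314 ± 0.153 and 3.16 ± 0.535 CPM in batch 1 and 1.27 ± 0.219 and 7.94 ± 0.786 CPM in batch 2 (log2 -3.35 ± 0.38 and -2.64 ± 0.15). In these comparisons NRP1 was lower as well.

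The third list held proteases and heparan sulfate carriers that process or retain VEGFs, with 10 of 11 genes tested in each batch. HIF-2α raised 1 and lowered 1 in each, where 5.73% and 7.55% of all genes were called. GPC1, a glypican, rose from 266 ± 61.1 to 915 ± 137 CPM in batch 1 and from 101 ± 2.2 to 302 ± 18 CPM in batch 2 (log2 1.78 ± 0.25 and 1.58 ± 0.05). SDC2, a syndecan, fell from 99.9 ± 12.9 to 47.6 ± 5.55 CPM and from 122 ± 6.87 to 45.1 ± 5.59 CPM (log2 -1.07 ± 0.18 and -1.44 ± 0.08). It also fell with HIF-1α/2α, to 42.8 ± 6.15 CPM, and was lower on exchange of the IDR on either structured part (log2 -1.59 ± 0.08 and -1.29 ± 0.08). PCSK5, a proprotein convertase, rose in both knock-in clones, from 36 ± 4.49 CPM in WT to 124 ± 7.38 CPM in HIF-1β KIN and 224 ± 28.2 CPM in HIF-2α KIN (adjusted p = 1.87e-08 and 1.36e-11), and MMP9, a gelatinase, fell in both, from 11.2 ± 2.86 to 3.98 ± 1.07 and 3.13 ± 0.81 CPM (adjusted p = 0.00175 and 6.58e-05).

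The genes whose pattern over the 14 group means was most like that of each member were found among 12461 genes with a mean of at least 50 normalized reads in both batches, after centring log2 CPM within each batch. They are given by Pearson's r with no test, since the group means share libraries and controls. VEGFA was most like ADM (r = 0.981), MOB3A (0.977) and DEPP1 (0.975). PGF was most like SELENON (0.985), IGFBP3 (0.980) and CERCAM (0.979), and VEGFB like LINC01711 (0.978), FAM102B and FKBP8 (0.968 each). VEGFC had the weakest matches, CDC42EP3 (0.917), NME4 (0.915) and CDH2 (0.878). NRP1 was most like FAM234B (0.970), ST5 (0.938) and PRR7 (0.932), and NRP2 like GRIN2B (0.964), PTPRK (0.963) and LRRC8D (0.955). No member was among the closest genes of another.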

How the data were processed

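The authors deposited raw read counts per gene for 42 poly(A) RNA-seq libraries in 2 batches, 14 groups of 3. Per the study's methods, reads were aligned to hg38 with STAR, and reads with a unique position were assigned to genes by HTSeq (union mode, GENCODE annotation, strand ignored). The submitters' processing notes give STAR 2.7, SAMtools 1.9 and HTSeq 0.11.1. Reads of a transgene count on HIF1A or EPAS1. No count column was left unused, and no signal track was used here.

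The main tests were run with edgeR 4.0.16 and limma 3.58.1 (R 4.3.3), and DESeq2 1.42.0 was an alternative. A gene was tested where its normalized count averaged at least 0.5 (23410 and 28724 genes in the 2 batches), with TMM normalization and all groups of a batch in 1 quasi-likelihood fit. Batches were compared in a joint fit of 26763 genes. A call needed a Benjamini-Hochberg adjusted p of at most 0.01 and a 2-fold change, except that interactions and batch differences needed the adjusted p alone. The standard error is the log2 change divided by the square root of the F statistic, and 95% intervals are normal. The scripts were tested on simulated data. No pair of replicates agreed within sampling noise (chi-square per degree of freedom at least 4.33).

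The members and gene lists were chosen with earlier results of these data known. All 10 members are named, and of each other list at most the 2 called genes with the largest change in a comparison. Depth was 42377599 to 101186554 reads (median 66795104) in batch 1 and 76366799 to 109642159 (median 90438640) in batch 2. Floors cover counting error only. Pairing by replicate number was checked by the correlation of deviations from group means. Same-numbered libraries gave a mean of 0.242 in batch 1 (-0.12 for other pairs), with every pair over 0.1 in 7 of 13 comparisons, and 0.00499 in batch 2, in 0 of 9. The numbers come from the labels, which do not say what they mark. Alternatives were DESeq2, RLE size factors, no filter, only the groups compared, a replicate block and each library left out. Leaving out all libraries numbered 3 in batch 1, and the union of exons as length, were added after seeing the data.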

Additional observations from a re-analysis of the deposited data

Results flagged for a closer look

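PGF and NRP1 were singled out because the effect of exchanging the IDR differed between the structured parts by a test of the difference itself. For PGF the exchange was a log2 of 1.81 on the structured part of HIF-1α and 3.68 on that of HIF-2α, and the difference was 1.86 ± 0.17 (edgeR adjusted p = 9.26e-11). For NRP1 the exchange was a log2 of -0.23 and -0.68, and the difference was -0.45 ± 0.08 (edgeR adjusted p = 5.96e-05).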

How the results depend on the processing

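Of 78 log2 changes followed through the alternatives, 63 kept their direction and their side of the threshold in all of them, and none changed direction. Recounts of called members stayed within 1.5 times the reported count in 271 cases and left it in 25. HIF-1α against HIF-1α R30E called 1 member and 2 without the libraries numbered 3 (1 to 2 with 1 library left out). HIF-1α against HIF-1αDM called 1, and 2 with DESeq2, without the filter or with the replicate block (1 to 2 with 1 library left out). HIF-1αDM against WT called 1, and 0 with only the groups compared (0 to 1 with 1 library left out). HIF-1β KIN called 0, and 1 with DESeq2, without the filter or with the replicate block. HIF-2α R27E called 1, and 0 without the libraries numbered 3 or with only the groups compared (0 to 1 with 1 library left out), and HIF-2αDM called 1 (0 to 1 with 1 library left out). Of 33 changes past the adjusted p but under 2-fold, 9 missed the adjusted p in at least 1 alternative.

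Over all genes, the calls of HIF-1αDM against WT went from 101 to 204 with DESeq2, 208 without the filter and 204 with the replicate block, and to 52 to 112 with 1 library left out, over 1.5 times fewer without HIF-1αDM library 2 or 3 or WT library 1 or 2 (57, 63, 52 and 53). Those of HIF-2α R27E went from 113 to 195, 215 and 204 in the same order, to 3 with only the groups compared and to 59 to 120 with 1 library left out, over 1.5 times fewer without WT library 1, 2 or 3 (59, 63 and 73). Those of HIF-2αDM went from 110 to 200, 209 and 202, and to 65 to 92 with 1 library left out, over 1.5 times fewer without HIF-2αDM library 2 or WT library 1, 2 or 3 (71, 65, 68 and 68). With only the groups compared HIF-1β KIN went from 321 to 197 and HIF-2α against HIF-2α R27E from 856 to 531, and without HIF-1αDM library 1 HIF-1α against HIF-1αDM went from 319 to 198. The cause was not tested. The block changed no call of a member other than PGF in the 3 comparisons named in the report, of which HIF-1α against HIF-1αDM did not meet the check for pairing. RLE size factors moved the share of higher calls by at most 4.02 percentage points and the median log2 change by at most 0.0552. FLT1, FLT4, VEGFD and most KDR counts were limited by depth.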
